A study of Rattus norvegicus with 27 samples.

Results

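The comparison described here sets tail motor neurons of male Wistar rats 60 days after complete transection of the sacral spinal cord (8 arrays) against those of male Wistar rats 60 days after a sham operation (5 arrays). These are the arrays titled Spi-60 and ShamC-60, 13 of the 27 arrays of the series, and all 12913 probe sets that are not Affymetrix controls were tested on them. In the transected group the cord was cut at the S2 level and 1 to 2 mm of tissue was taken out. In the sham group the vertebral arch was opened and the dura stayed closed. Both groups had the same opening at vertebrae L2 to L3, the same analgesic (buprenorphine) and the same retrograde tracer, Fluorogold, given into muscle and into the peritoneum 5 to 7 days before the neurons were collected. The labels give no age of the rats. Each sample was a pool of 100 to 200 laser-dissected fluorescent neurons from 10 µm sections per the sample labels, while the series' design text gives a lower minimum. The RNA went through 2 rounds of amplification before hybridisation. The labels number the samples as biological replicates but tie none of them to an animal, litter or batch, so every p-value measures the spread between these samples.

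Sacral motor neurons below such a lesion keep their axon to the tail muscles but lose all input from the brain and brainstem, including the serotonin and noradrenaline fibres that set their excitability. In this tail preparation the motor neurons are known to be hard to excite soon after the lesion and to become overexcitable over the following weeks, with spasms of the tail carried by persistent sodium and calcium currents. The 60-day samples lie in that late, spastic stage, and the comparison asks which transcripts of the neurons differ from sham at that stage.

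The 13 arrays had medians between 6.32 and 6.41 on the log2 scale of the deposited signals, and any pair of them correlated between 0.848 and 0.989. Motor neuron genes were present in both groups. Prph, the intermediate filament peripherin, read 12.9 to 13.5 in transected arrays and 12.5 to 13.1 in sham replicates 1, 2, 3 and 5, and Nefh, the heavy neurofilament, read 13.2 to 14.5 over all arrays. Isl1, a motor neuron transcription factor, read 5.73 to 6.33, near or below the array medians, and Chat had no single-gene probe set here. Sham replicates 1 and 4 stood apart. On the first principal component of the 13 arrays, which held 45.8% of the variance, they lay at 40.1 and 61.1, the other sham arrays between 0.8 and 11.8 and the transected arrays between −33.1 and −4.1. Sham replicate 4 had the lowest mean of the 16 motor neuron identity genes, 8.56 against 9.62 to 9.85 in the other sham arrays, with Prph at 9.78 and the receptor gene Ret at 8.23. It also had the highest signals for Gad1 (11.8), Pdyn (9.92) and Npy (8.94), genes of spinal interneurons, and for the astrocyte transporter gene Slc1a3 (11.9). The mean of the 13 astrocyte genes was not highest there (8.90). It was higher in sham replicate 1 (9.35, the highest of the 13 arrays) and in transected replicate 8 (9.04). Sham replicate 1 had the highest mean of 14 genes of Schwann cells, meninges and ependyma, 8.34 against 6.42 to 7.19 in the other sham arrays. Its signals for the connective tissue gene Dcn (9.05), the haemoglobin gene Hbb (10.4) and the myelin gene Mbp (11.3) were also the highest of the 13 arrays. For this reason the counts of most lists and the values of the leading genes are given with and without these 2 arrays.

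**Figure D1:**
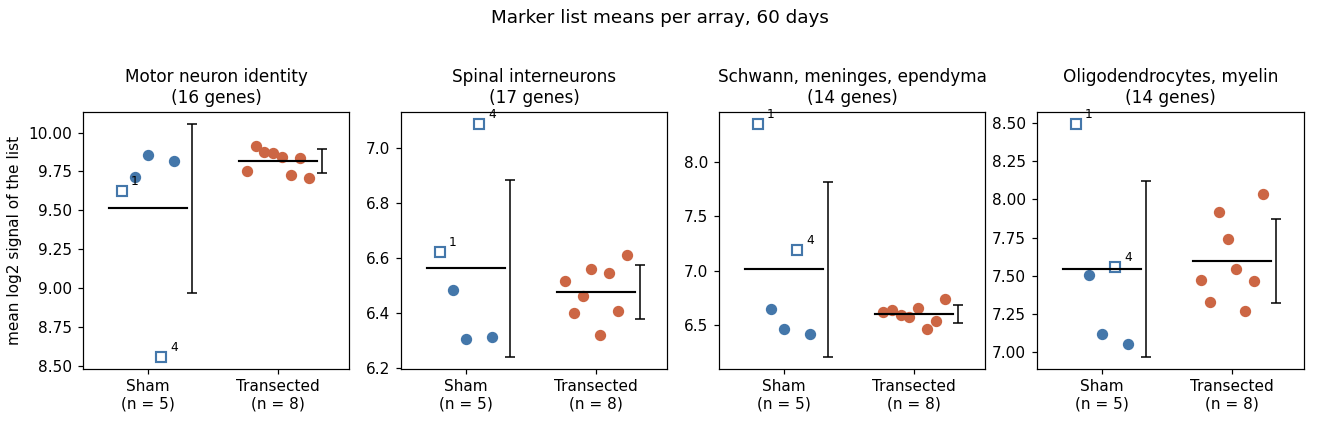
Mean log2 signal of 4 marker lists on each of the 13 arrays (points), with the group mean (horizontal line) and SD (bar beside it); open squares are sham replicates 1 and 4. Sham replicate 4 lies lowest for motor neuron identity (8.56), and sham replicate 1 lies highest for Schwann cell, meningeal and ependymal genes (8.34).

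A further difference touched the arrays as a whole. The beta-actin control probe sets read 3.27 ± 0.303 (SD, n = 8) log2 units more at the 3′ than at the 5′ end in transected arrays and 2.22 ± 0.182 (SD, n = 5) more in sham arrays, a difference of 1.05 (two-sided exact permutation test, p = 0.000777, the smallest that 8 against 5 arrays allow; adjusted p = 0.00466 over 12 array measures). For the GAPDH controls the difference was 0.81 (exact permutation, adjusted p = 0.0124). Without sham replicates 1 and 4 these differences were 1.11 and 0.84 (exact permutation, adjusted p = 0.0242 for both). Their part in the differences of single genes was not tested. The means of the 7 marker lists of other cell types differed by −0.41 to 0.19 between the groups, and none passed (exact permutation, adjusted p of 0.218 or more). Without sham replicates 1 and 4 the astrocyte mean was 0.45 higher after transection (exact permutation, p = 0.0364, adjusted p = 0.0873) and the oligodendrocyte mean 0.37 higher (exact permutation, adjusted p = 0.145). The mean for Schwann cells, meninges and ependyma went from −0.41 to 0.09 (exact permutation, adjusted p = 0.273).

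Of the 12913 probe sets, 2463 (19.1%) passed an adjusted p of 0.05 in the limma fit, 1311 higher (10.2%) and 1152 lower (8.92%) after transection. With all arrays more of the large differences were falls, with 89 probe sets over 2-fold higher and 195 over 2-fold lower. Without sham replicates 1 and 4, 797 probe sets (6.17%) passed, 472 higher (3.66%) and 325 lower (2.52%). The large differences were then nearly even, with 55 over 2-fold higher and 60 over 2-fold lower. With 1 probe set standing for each of 9769 genes, 1964 genes passed (20.1%), of which 1042 rose (10.7%) and 922 fell (9.44%). Without the 2 sham arrays 388 genes rose (3.97%) and 272 fell (2.78%), and 660 passed in all (6.76%). Counts of gene lists without these 2 arrays below are to be set beside these 3.97% and 2.78%. Of the genes called with all arrays, 364 of the risers and 238 of the fallers passed in the same direction without the 2 arrays as well. In 617 probe sets (4.78%) each transected array lay above each sham array, and in 441 (3.42%) each lay below. Since the samples are pools of dissected cell bodies, fewer cells of a type in a pool and less RNA per cell cannot be told apart.

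The gene with the largest rise was Cacng2, which encodes stargazin, the auxiliary subunit that brings AMPA receptors to synapses. Its log2 signal was 6.54, 6.83, 6.78, 6.16 and 6.44 in sham replicates 1 to 5, and 10.2, 9.94, 8.68, 8.75, 10.5, 8.61, 8.55 and 9.34 in transected replicates 1 to 8. The lowest transected array thus lay well above the highest sham array, and replicates 1, 2 and 5 were the highest. The difference was 2.78 ± 0.273 (log2, SE), a 6.85-fold rise (limma, adjusted p = 1.43e-07), and 6.25-fold without sham replicates 1 and 4 (adjusted p = 1.7e-05). Clcn3, a chloride and proton exchanger of endosomes and synaptic vesicles, read 6.64, 6.57, 7.14, 6.84 and 6.00 in the sham arrays. In the transected arrays it read 9.80, 8.43, 9.20, 8.41, 9.51, 9.50, 9.21 and 8.38. Again no array overlapped, and the rise was 5.33-fold (2.41 ± 0.27, adjusted p = 1.06e-06; 5.58-fold without the 2 sham arrays). A second Clcn3 probe set rose by 1.58 (adjusted p = 1.37e-06).

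Apoe, which encodes the lipid carrier apolipoprotein E and is strongly expressed by astrocytes, read 6.79, 5.71, 5.91, 6.93 and 5.90 in sham and 8.06, 8.01, 8.38, 8.33, 8.45, 7.60, 7.36 and 9.11 in transected arrays. Sham replicates 1 and 4 were its 2 highest sham values, so that the rise was 3.77-fold with them (1.91 ± 0.252, adjusted p = 1.05e-05) and 5.00-fold without them (adjusted p = 6.11e-06). The astrocyte gene Gfap was highest in transected replicate 8 (12.3), where Apoe was also highest. Gfap itself differed by 0.65 ± 0.353 (adjusted p = 0.196) and by 0.88 without the 2 sham arrays (adjusted p = 0.232). What part astrocyte RNA had in the Apoe signal was not tested.

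Among the other leading risers, with no overlap between the groups, were Sympk, a scaffold of the mRNA 3′ end processing machinery (4.07-fold), the zinc finger gene Zfp771 (3.67-fold), the adhesion receptor gene Adgrb2 (3.39-fold), the kinase gene Dapk3 (3.15-fold) and Cog8, a subunit of a Golgi tethering complex (2.82-fold). Cdh13, a cadherin held to the membrane by a lipid anchor, rose 3.35-fold, and its second probe set rose as well (1.26, adjusted p = 0.000653). Gpx4, the glutathione peroxidase that detoxifies lipid peroxides, read 6.65 to 7.06 in sham and 7.72 to 8.65 in transected arrays, a 2.74-fold rise (adjusted p = 1.43e-07). Igfbp6, a binding protein for insulin-like growth factors, kept within 6.94 to 7.20 over the sham arrays and read 8.06 to 8.89 after transection (2.86-fold, adjusted p = 0.000513). Passing without sham replicates 1 and 4 was a condition for choosing these genes, and their folds in that fit were 2.58 to 3.27.

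**Figure D2:**
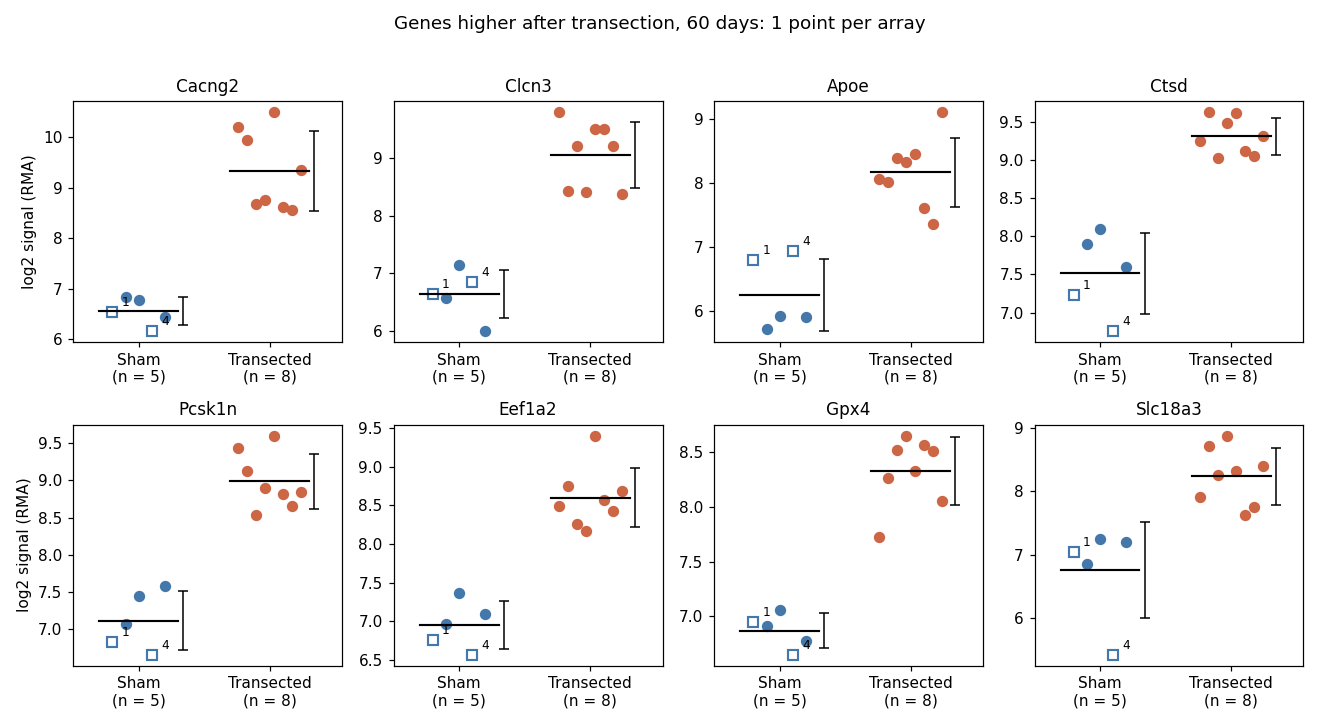
Log2 signal of 8 genes that were higher after transection, 1 point per array, with the group mean (line) and SD (bar); open squares are sham replicates 1 and 4. In each panel the transected arrays lie above all sham arrays.

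The largest fall was that of Reg3b, a secreted lectin-like protein that motor neurons make after axon injury. It read 11.2, 12.2, 12.1, 7.43 and 12.2 in sham replicates 1 to 5, and 8.93, 5.45, 5.58, 7.67, 5.37, 7.69, 7.90 and 11.9 in transected replicates 1 to 8. Sham replicate 4 lay among the transected arrays, and transected replicate 8 lay among the other sham arrays. The fall was 11-fold (−3.46 ± 0.919, adjusted p = 0.00973) and 24.3-fold without sham replicates 1 and 4 (−4.60, adjusted p = 0.00526). A similar arrangement, with sham replicate 4 at or near the transected level, was seen for other genes that fell. Lgals3, which encodes galectin-3, read 7.97, 8.51, 8.29, 6.63 and 8.58 in sham and 6.73 to 7.32 in transected arrays, so its fall grew from 1.99-fold to 2.74-fold without the 2 sham arrays (adjusted p = 0.00907 and 0.0005). Gch1, the first enzyme in making the cofactor of serotonin and dopamine synthesis, fell 2.20-fold and 3.39-fold respectively (adjusted p = 0.0141 and 0.00113), while its second probe set differed by 0.10 (adjusted p = 0.528). Cd55, an inhibitor of complement, fell 2.56-fold and 3.25-fold, and its second probe set differed by 0.06 (adjusted p = 0.785). Cdkn3, a phosphatase that acts on a cell cycle kinase, fell 3.67-fold and 5.49-fold.

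Other genes fell by similar amounts with and without the 2 sham arrays. Ccar1, a coactivator of transcription and cell cycle regulator, read 8.80, 8.79, 8.43, 8.45 and 8.71 in sham and 5.58 to 7.25 in transected arrays, a 4.11-fold fall with no overlap (−2.04 ± 0.225, adjusted p = 7.95e-07). A second Ccar1 probe set did not fall with it, at 0.20 (adjusted p = 0.223). Sec62, part of the channel that moves proteins into the endoplasmic reticulum, read 8.83 to 9.58 in sham and 7.4 to 8.65 in transected arrays (2.38-fold lower, adjusted p = 3.77e-05; 2.60-fold without the 2 arrays). Dcun1d5, a factor for cullin neddylation, fell 3.14-fold and Phip, a chromatin-binding protein, 2.91-fold, both with no overlap. A second Phip probe set differed by −0.33 (adjusted p = 0.346). Mospd2, Meis2 and Mlf1 fell 3.45-fold, 2.40-fold and 2.14-fold. Mospd2 and Meis2 did not pass when the day-60 arrays were fitted alone without the 2 sham arrays.

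**Figure D3:**
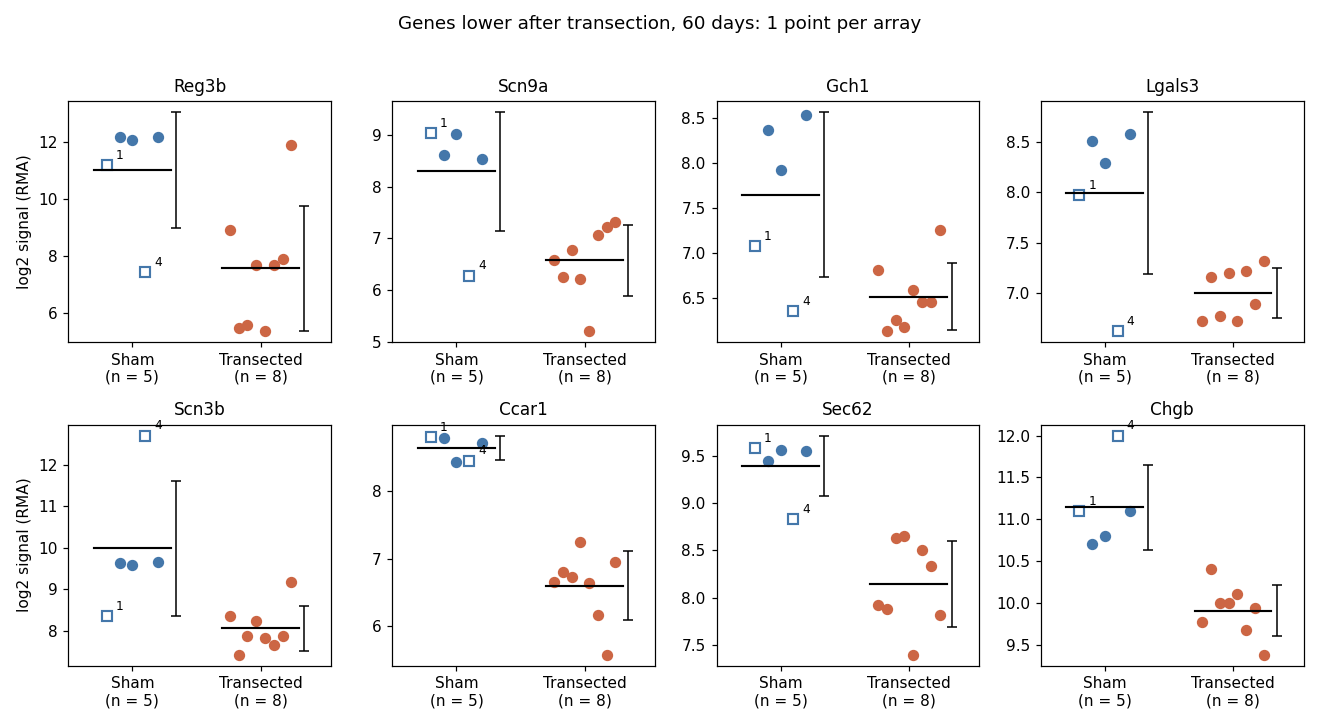
Log2 signal of 8 genes that were lower after transection, drawn as in the plot of risers. Sham replicate 4 lies at the transected level for Reg3b (7.43), Scn9a (6.28), Gch1 (6.35) and Lgals3 (6.63), and above the other sham arrays for Scn3b (12.7) and Chgb (12).

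Lysosomes break down proteins and lipids delivered by endocytosis and autophagy, and rely on cathepsins, on the saposins made from Psap and on an ATP-driven proton pump. Of 59 measured lysosomal genes 13 rose and 3 fell (22.0% and 5.08%, beside 10.7% and 9.44% of all genes; the latter are 3.97% and 2.78% without sham replicates 1 and 4), with a median difference of 0.08 beside 0.02 over all genes. Without sham replicates 1 and 4, 10 of these rose and 2 fell. Ctsd, the aspartyl protease cathepsin D, read 7.23, 7.90, 8.09, 6.76 and 7.60 in sham and 9.25, 9.63, 9.02, 9.49, 9.61, 9.12, 9.05 and 9.32 in transected arrays. All transected arrays lay above all sham arrays, and the rise was 3.47-fold (1.80 ± 0.193, adjusted p = 5.79e-07; 2.73-fold without the 2 sham arrays). Psap read 8.04 to 8.53 in sham and 9.20 to 9.74 in transected arrays, a 2.20-fold rise (adjusted p = 1.2e-06; 2.21-fold without the 2 sham arrays). The proton pump subunits Atp6v1b2 (0.81), Atp6v1f (0.75), Atp6v0c (0.62), Atp6v0b (0.60), Atp6v0e2 (0.50) and Atp6v0a2 (0.48) rose, as did Tpp1, a peptidase (0.66), Ctsa (0.55), Ppt2 (0.53), the calcium channel gene Mcoln1 (0.37) and Tfeb, the transcription factor that drives lysosomal genes (0.50, adjusted p = 0.000627). Of these, Atp6v0c, Ppt2 and Mcoln1 did not pass without the 2 sham arrays. The fallers were Ctsl, the cysteine protease cathepsin L (−1.04, adjusted p = 0.000965), the membrane protein gene Lamp2 (−0.73) and Manba (−0.46, adjusted p = 0.402 without the 2 arrays). Microglia are also rich in lysosomes, and the mean of 14 microglial markers read 6.64 ± 0.386 after transection (SD, n = 8) against 6.44 ± 0.254 after sham operation (SD, n = 5; exact permutation, adjusted p = 0.573). Its part in these rises was not tested.

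Tfeb and its relatives bind a motif that holds CACGTG, which reads the same on both strands. The RefSeq promoters of 47 genes on the lysosomal list were available, and 11 of them (23.4%) held CACGTG between 250 bases before and 50 bases after the start, beside 8.88% of 8051 tested genes and 6.65% of all 27457 RefSeq promoters. Among the lysosomal genes that rose 2 of 10 held it, and among those that did not rise 9 of 37. The 250 bases before the start of a riser with 2 matches (Ctsd, GRCr8 chr1:206968822-206969071, minus strand), a riser with 1 match (Mcoln1, GRCr8 chr12:6358008-6358257, plus strand) and a gene with 5 matches that did not pass (Lamp1, GRCr8 chr16:83075064-83075313, minus strand; −0.25, adjusted p = 0.228) show the motif in capitals, 5′ to 3′ on the gene's strand.
Ctsd: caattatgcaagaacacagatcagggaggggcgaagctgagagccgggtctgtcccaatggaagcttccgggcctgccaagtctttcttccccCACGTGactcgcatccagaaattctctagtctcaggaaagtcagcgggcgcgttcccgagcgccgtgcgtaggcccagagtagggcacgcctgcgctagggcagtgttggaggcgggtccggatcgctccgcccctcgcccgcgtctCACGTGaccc
Mcoln1: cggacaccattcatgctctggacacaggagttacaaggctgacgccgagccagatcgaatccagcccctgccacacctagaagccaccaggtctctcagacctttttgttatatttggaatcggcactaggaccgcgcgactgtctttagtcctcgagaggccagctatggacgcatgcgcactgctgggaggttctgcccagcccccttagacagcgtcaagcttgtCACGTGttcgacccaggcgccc
Lamp1: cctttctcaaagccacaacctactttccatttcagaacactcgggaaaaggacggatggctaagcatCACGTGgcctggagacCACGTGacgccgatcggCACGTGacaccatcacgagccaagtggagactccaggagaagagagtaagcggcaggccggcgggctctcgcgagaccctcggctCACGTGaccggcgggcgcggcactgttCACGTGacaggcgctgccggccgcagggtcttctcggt
In Ctsd the matches begin 157 and 10 bases before the start, in Mcoln1 22 bases before it, and in Lamp1 between 183 and 38 bases before it. The promoter sequences and their positions are those of RefSeq on GRCr8. A match describes these letters only.

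Cholinergic identity was assessed by 16 genes, of which 5 rose and none fell in the limma fit (31.2% and 0%), beside 10.7% and 9.44% of all genes. Without sham replicates 1 and 4, 1 rose and 1 fell. Slc18a3, which loads acetylcholine into vesicles, read 7.04, 6.86, 7.25, 5.43 and 7.21 in sham and 7.91, 8.72, 8.26, 8.88, 8.33, 7.63, 7.76 and 8.40 in transected arrays. Sham replicate 4 was the lowest, but every transected array also lay above the other 4 sham arrays. The rise was 2.79-fold (1.48 ± 0.27, adjusted p = 0.000434) and 2.19-fold without the 2 sham arrays (adjusted p = 0.0102). Esrrg, a nuclear receptor of gamma motor neurons (1.05), Prph (0.92), Nefh (0.38) and the nicotinic subunit gene Chrna4 (0.35) rose in the fit of all arrays only, with adjusted p of 0.116, 0.285, 0.183 and 0.207 without the 2 sham arrays. The mean of the whole list differed by 0.30 with all arrays and by 0.02 without those 2. The choline transporter gene Slc5a7 differed by 0.18 (adjusted p = 0.704). Calca, the precursor of calcitonin gene-related peptide, which motor neurons release at the muscle, differed by −0.39 with all arrays (adjusted p = 0.513) and fell by 1.17 without the 2 sham arrays (adjusted p = 0.0222).

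Glutamate carries the sensory and interneuronal excitation that remains below a lesion. Of 14 ionotropic receptor genes 4 rose and 2 fell (28.6% and 14.3%, all genes 10.7% and 9.44%). Of these, 3 risers and no faller also passed without sham replicates 1 and 4. In these 3 risers each transected array lay above each sham array, as in 4.78% of all probe sets. They had already passed in both fits, so the lack of overlap adds no separate result. Grin3b, an NMDA receptor subunit found in motor neurons, read 6.94 to 8.00 in sham and 8.58 to 9.18 in transected arrays (1.25 ± 0.169, 2.37-fold, adjusted p = 1.54e-05; 0.98 without the 2 sham arrays). Grik5, a kainate receptor subunit, rose by 0.76 in both fits (adjusted p = 2.91e-05 with all arrays), and Grin1, the subunit shared by all NMDA receptors, by 0.69 (adjusted p = 0.00112; 0.53 and 0.0352 without the 2 arrays). The AMPA receptor subunit gene Gria4 fell by 0.57 (adjusted p = 0.0253), but not without the 2 sham arrays (adjusted p = 0.119), and its second probe set differed by 0.15 (adjusted p = 0.451). Gria2, the subunit that keeps AMPA receptors closed to calcium, read 11.6 in sham replicate 4, 8.04 to 8.87 in the other sham arrays and 7.58 to 8.33 after transection; its fall of 1.02 became −0.20 without the 2 arrays (adjusted p = 0.039 and 0.54). Among 25 partners and scaffolds of these receptors 5 rose and none fell (20% and 0%, all genes 10.7% and 9.44%; 2 and 0 without the 2 arrays), Cacng2 first, then Pick1, which binds and traffics AMPA receptors (0.60; 0.46 without the 2 arrays, adjusted p = 0.0491), and Nsf, Dlgap1 and Cacng7 (0.30 to 0.33), which passed only with all arrays.

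For inhibition, 3 of 17 GABA and glycine receptor genes rose and none fell (17.6% and 0%, all genes 10.7% and 9.44%). These were Glra1, the adult glycine receptor subunit (0.34), the GABA-B receptor gene Gabbr1 (0.45) and Gabarap, which links GABA receptors to microtubules and also acts in autophagy (0.54). A second Gabbr1 probe set differed by 0.26 (adjusted p = 0.119). Gabarap was the one that passed without the 2 sham arrays (0.79, adjusted p = 0.0183), and its second probe set differed by −0.08. Its call with all arrays was lost in 7 of 13 fits that each left out 1 array (adjusted p up to 0.0895). Gabra5 read 9.38 in sham replicate 4 and 7.72 to 7.89 in the other sham arrays, and its difference of −0.61 did not pass (adjusted p = 0.082). Among 20 genes of chloride transport and its kinases 2 rose and none fell with all arrays (10.0% and 0%, near the rises and below the falls of all genes, 10.7% and 9.44%). Without the 2 arrays 3 rose and 0 fell, beside 3.97% and 2.78% of all genes. Clcn3 rose, and so did Slc4a3, which exchanges chloride for bicarbonate (1.01, adjusted p = 0.000729; 0.59 without the 2 arrays, adjusted p = 0.0462). Clcn4 rose in the fit without these 2 arrays (0.83, adjusted p = 0.0454; 0.39 and 0.274 with them). Slc12a5, the neuronal chloride extruder, had no single-gene probe set here.

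Monoamine receptors are of interest because the lesion removes the serotonin and noradrenaline fibres. Of 24 receptor genes 2 rose and none fell (8.33% and 0%, neither share above that of all genes, 10.7% and 9.44%), and none passed without sham replicates 1 and 4. For the serotonin receptors that drive motor neuron excitability the differences with all arrays were small and did not pass. They were 0.08 ± 0.102 for Htr2a (adjusted p = 0.609), −0.23 ± 0.188 for Htr2b (adjusted p = 0.41) and 0.09 ± 0.0941 for Htr2c (adjusted p = 0.522). Their sham and transected ranges overlapped, for Htr2b 4.56 to 5.61 against 4.24 to 5.24. Without sham replicates 1 and 4 Htr2a, Htr2b and Htr2c differed by 0.03, −0.44 and 0.1 (adjusted p = 0.939, 0.228 and 0.67). The sham range of Htr2b was then 5.13 to 5.61, and 6 of 8 transected arrays lay below it. At 21 days Htr2b differed by −0.57 (adjusted p = 0.0224). Mean signals of Htr2a, Htr2b and Htr2c were 6.02, 4.89 and 5.73 after transection and 5.94, 5.12 and 5.64 after sham operation. These lay below the array medians of 6.32 to 6.41, and such low signals limit what the values can show about a change. The adrenergic receptor gene Adra1d read 5.58 to 6.68 in sham and 6.86 to 7.58 in transected arrays (0.69, adjusted p = 0.00515; 0.51 without the 2 arrays, adjusted p = 0.0715). The dopamine receptor gene Drd4 rose by 0.35, and its second probe set differed by −0.13. Of 18 acetylcholine receptor genes 2 rose and none fell (11.1% and 0%, all genes 10.7% and 9.44%). These were the nicotinic subunit genes Chrna6 (0.39) and Chrna4, with adjusted p of 0.078 and 0.207 without the 2 arrays.

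Voltage-gated channels set how a motor neuron turns input into firing. Of 12 sodium channel and partner genes 1 rose and 3 fell (8.33% and 25%, all genes 10.7% and 9.44%), and 2 of the falls passed without the 2 sham arrays. Scn9a, the sodium channel Nav1.7, read 9.04, 8.61, 9.01, 6.28 and 8.53 in sham and 6.58, 6.25, 6.78, 6.22, 5.21, 7.06, 7.21 and 7.31 in transected arrays. Sham replicate 4 lay among the transected arrays and the other 4 sham arrays above them, and the fall was 3.29-fold (adjusted p = 0.0117) or 4.40-fold without the 2 arrays (adjusted p = 0.00849). Scn3b, an auxiliary sodium channel subunit, read 8.34, 9.64, 9.57, 12.7 and 9.65 in sham and 7.42 to 9.18 in transected arrays. Here sham replicate 4 was highest, and the fall was 3.82-fold with all arrays and 2.97-fold without the 2 (adjusted p = 0.00534 and 0.0133). A second Scn3b probe set differed by −0.88 with all arrays (adjusted p = 0.103) and by −0.55 without the 2 arrays (adjusted p = 0.347). Scn2a fell by 0.93, with an adjusted p of 0.0954 without them. Of 15 voltage-gated calcium channel genes 1 rose and 1 fell (6.67% each, below the shares of all genes, 10.7% and 9.44%), and none passed without the 2 arrays. Cacna1b, the N-type channel, rose (0.47, with an adjusted p of 0.117 without the 2 arrays). Cacna1d, the L-type channel that carries persistent calcium current, fell (−0.54 ± 0.141, adjusted p = 0.00885). Cacna1d read 6.57, 6.27, 6.56, 7.35 and 6.91 in sham and 5.98 to 6.36 in transected arrays, and without sham replicate 4 its adjusted p was 0.0531, without both 0.118. Cacna1c, the other L-type gene, differed by −0.19 ± 0.137 (adjusted p = 0.348).

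Of 62 potassium channel genes 9 rose and 4 fell (14.5% and 6.45%, all genes 10.7% and 9.44%), and 3 and 1 passed without the 2 sham arrays. Kcna1, the low-threshold channel Kv1.1 of axons, read 8.68 to 10.1 in sham and 9.93 to 11.3 in transected arrays (0.97, 1.96-fold, adjusted p = 0.00212). Kcnh2, the ERG channel, rose by 0.47 (adjusted p = 0.000206) and the leak-type channel gene Kcnk12 by 0.61 (adjusted p = 0.00157), both with no overlap. Kcnk3, the acid-sensitive leak channel TASK-1, read 6.77 to 7.24 in sham and 7.4 to 7.97 in transected arrays (0.71; 0.64 without the 2 arrays, adjusted p = 0.113). Kcna4, the A-type channel Kv1.4, fell by 1.16 (adjusted p = 0.00219; 0.80 without the 2 arrays, adjusted p = 0.027). Of 15 genes of the axon initial segment and nodes, where spikes start, 6 rose and 1 fell (40.0% and 6.67%, all genes 10.7% and 9.44%; 2 and 0 without the 2 arrays). Sptbn4, the spectrin that anchors sodium channels there, read 7.48, 8.61, 8.21, 7.63 and 8.72 in sham and 9.40 to 10.4 in transected arrays, a 3.22-fold rise (adjusted p = 8.89e-06; 2.47-fold without the 2 arrays). Ank2 rose by 0.53 and also passed without them (adjusted p = 0.0237), while Sptbn1, Epb41l3, Cntnap1 and Trim46 did not. Of 13 HCN and TRP channel genes 2 rose and 1 fell (15.4% and 7.69%, near the shares of all genes), the TRP channel genes Trpm8 (0.32), Trpv6 (0.29) and Trpc6 (−0.58), and none passed without the 2 arrays. Of 27 genes of calcium stores and buffers 5 rose and none fell (18.5% and 0%, all genes 10.7% and 9.44%; 2 and 0 without the 2 arrays), led by the kinase gene Camk2g (0.95) and the calcium sensor gene Hpcal1 (0.88), whose second probe set differed by −0.03.

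Motor neurons also store and release peptides. Of 18 genes of secretory granules and peptide processing 5 rose and 2 fell (27.8% and 11.1%, all genes 10.7% and 9.44%; 2 and 2 without the 2 arrays). Pcsk1n, which encodes the inhibitor proSAAS of a prohormone convertase, read 6.66 to 7.58 in sham and 8.53 to 9.60 in transected arrays, a 3.65-fold rise (1.87 ± 0.278, adjusted p = 4.52e-05; 3.07-fold without the 2 arrays). The granule protein gene Chgb went the other way, from 10.7 to 12 in sham to 9.38 to 10.4 in transected arrays (2.36-fold lower, adjusted p = 0.000136; 1.96-fold without the 2 arrays). Nucb2 fell by 0.66, and Vgf, a granule peptide precursor, read 9.07 in sham replicate 4 and 10.9 to 11.7 in the other sham arrays; its rise of 0.96 became 0.26 without the 2 arrays (adjusted p = 0.642). Of 21 neuropeptide genes 2 rose and 2 fell with all arrays (9.52% each, about the shares of all genes, 10.7% and 9.44%). Without the 2 arrays 1 rose and 2 fell, beside 3.97% and 2.78% of all genes. Vip, vasoactive intestinal peptide, read 6.32, 9.51, 6.83, 8.21 and 7.77 in sham and 5.42 to 7.24 in transected arrays; its 3.05-fold fall (adjusted p = 0.0273) was lost without sham replicate 2 or 4 (adjusted p up to 0.11) but passed at 0.0492 without 1 and 4. Cck, cholecystokinin, rose by 0.65 with all arrays and by 0.43 without the 2 (adjusted p = 0.115).

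Of 27 genes of axon injury and regeneration 4 rose and 2 fell (14.8% and 7.41%, all genes 10.7% and 9.44%; 1 and 2 without the 2 arrays). The fallers were Reg3b and Vip. Atf3, the transcription factor switched on by axon damage, read 8.16, 10.6, 10.6, 6.93 and 10.3 in sham and 7.22 to 10.6 in transected arrays, a difference of −0.52 ± 0.574 (adjusted p = 0.557). Without sham replicates 1 and 4 it was −1.70 (adjusted p = 0.0594), and 0.0361 when the day-60 arrays were fitted alone without them. Arg1 (−1.63, adjusted p = 0.0983), Gal (−0.07) and Jun (−0.17) did not pass. Basp1, a growth cone protein, rose by 0.89 with no overlap (adjusted p = 0.00108; 0.0384 without the 2 arrays), and the neuronal tubulin gene Tubb3 by 0.92 (adjusted p = 0.189 without them). Of 38 neurotrophic factor and receptor genes 3 rose and 2 fell (7.89% and 5.26%, below the shares of all genes, 10.7% and 9.44%; 1 and 1 without the 2 arrays). Nrg1, the neuregulin that signals at the neuromuscular junction and to Schwann cells, rose 2.70-fold (adjusted p = 0.00102), with 6 of 8 transected arrays above all sham arrays, while 3 other probe sets of Nrg1 differed by −0.38 to 0.09 and did not pass. Igf1, insulin-like growth factor 1, read 8.96, 7.42, 7.87, 7.88 and 7.94 in sham and 7.30, 6.35, 7.03, 6.63, 6.87, 7.11, 7.02 and 7.21 in transected arrays. It was lower in each transected array, by 2.11-fold (adjusted p = 0.00133), or 1.75-fold without the 2 sham arrays (adjusted p = 0.0336). Among 35 guidance genes 5 rose and none fell with all arrays (14.3% and 0%, all genes 10.7% and 9.44%). Without the 2 sham arrays 1 rose and 1 fell: the ephrin receptor gene Ephb6 (0.92, adjusted p = 0.000246, with all arrays; 0.83 and 0.00639 without the 2) and Slit2, a repellent of growing axons (−0.58, adjusted p = 0.0796, and −0.87, adjusted p = 0.0329).

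Genes of protein synthesis moved in both directions. Of 42 cytosolic ribosomal protein genes 14 fell and 3 rose (33.3% and 7.14%, beside 9.44% and 10.7% of all genes), with a median of −0.20 beside 0.02 for all genes; 5 fell and none rose without the 2 sham arrays. Rpl21 read 10.9 to 11.5 in sham and 9.98 to 10.7 in transected arrays (−0.84, adjusted p = 1.54e-05), and Rpl35a 10.9 to 11.3 and 10.2 to 10.6 (−0.72, adjusted p = 1.05e-05). Rpl24 (−0.82), Rpl23a (−0.78) and Rpl35 (−0.54) were the other falls that passed in both fits. Of 68 mitochondrial ribosomal protein genes 11 fell and 4 rose (16.2% and 5.88%, all genes 9.44% and 10.7%). Without the 2 arrays 4 fell and 0 rose. Mrps14 (−0.89) and Mrps15 (−0.75) fell most. A second Mrps14 probe set differed by −0.17 (adjusted p = 0.467). Among 51 translation factors 10 rose and 8 fell (19.6% and 15.7%, all genes 10.7% and 9.44%; 3 and 3 without the 2 arrays). Eef1a2, the elongation factor of mature neurons and muscle, read 6.76, 6.96, 7.37, 6.57 and 7.10 in sham and 8.17 to 9.40 in transected arrays, a 3.12-fold rise with no overlap (adjusted p = 6.48e-06; 2.73-fold without the 2 arrays). Its widely expressed paralogue Eef1a1 read 11.7, 11, 10.4, 12.3 and 10.9 in sham and 8.69 to 11 in transected arrays, a 3.49-fold fall (adjusted p = 0.000573; 2.46-fold without the 2 arrays, adjusted p = 0.0323). A second Eef1a1 probe set differed by −0.72 (adjusted p = 0.14), and cross-hybridisation between such close copies was not tested. Eif5a rose 2.52-fold (adjusted p = 7.6e-07; 2.25-fold without the 2 arrays), while Eif1a fell by 1.26 and Eif2a by 0.93.

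Of 51 genes of splicing and RNA-binding proteins 14 fell and 5 rose (27.5% and 9.80%, all genes 9.44% and 10.7%; 6 and 3 without the 2 sham arrays). Hnrnpa1, a splicing repressor, read 9.39 to 9.83 in sham and 7.87 to 8.96 in transected arrays (2.29-fold lower, adjusted p = 0.000176; 2.24-fold without the 2 arrays), and a second probe set fell by 0.43 (adjusted p = 0.0439). The spliceosome genes Snrpa1 (−0.71) and Snrpe (−0.60) fell with no overlap. Fmr1, the fragile X protein, fell by 1.70 (adjusted p = 0.00117; −1.14 and 0.0604 without the 2 arrays), and its paralogue Fxr2 rose by 0.80 (adjusted p = 0.000115; 0.62 and 0.00825). Elavl4, a neuronal RNA-stabilising protein, rose by 0.88. Of 58 heat shock and chaperonin genes 11 fell and 5 rose (19.0% and 8.62%, all genes 9.44% and 10.7%), and 3 and 1 without the 2 arrays, with Dnajc2 (−0.55) and Hspbp1 (0.64) among those that passed in both.

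Energy metabolism held strong risers beside fallers. Of 67 respiratory chain and ATP synthase genes 15 rose and 6 fell (22.4% and 8.96%, all genes 10.7% and 9.44%), and 5 and 3 without the 2 sham arrays. Uqcrc1, a core subunit of complex III, read 9.72, 10.7, 10.8, 8.68 and 10.5 in sham and 11.5 to 11.9 in transected arrays; sham replicates 1 and 4 were the lowest, and the rise was 2.97-fold with them and 1.99-fold without (adjusted p = 2.17e-05 and 6.69e-05). The cytochrome c oxidase subunits Cox6a1 (2.40-fold, adjusted p = 6.9e-07), Cox4i1 (2.05-fold) and Cox8a (1.65-fold) rose with no overlap, whereas Cox7c (−0.48), Ndufa2 (−0.48) and Atp5mf (−0.51) fell in both fits. Of 36 genes of glycolysis and the citric acid cycle 5 rose and 4 fell with all arrays (13.9% and 11.1%, near the shares of all genes, 10.7% and 9.44%). Without the 2 arrays 5 rose and 1 fell, beside 3.97% and 2.78% of all genes. Aldoc, the brain aldolase that astrocytes also express, read 11.7, 11.4, 11.5, 10.3 and 11.6 in sham and 12.1 to 13.1 in transected arrays (2.59-fold higher, adjusted p = 1.94e-05), and Aldoa, Gpi and Pfkm rose by 0.92, 0.95 and 0.52. The astrocyte marker mean was 0.45 higher without the 2 sham arrays (exact permutation, adjusted p = 0.0873); its part in the Aldoc rise was not tested. Other probe sets of Pfkm differed by 0.15 and 0.14 (adjusted p = 0.295 and 0.458). Idh1 fell by 0.67.

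Protein disposal also split within complexes. Of 40 proteasome genes 6 rose and 5 fell (15% and 12.5%, all genes 10.7% and 9.44%). Without the 2 sham arrays 2 rose and 5 fell (all genes 3.97% and 2.78%). Psmb7, a catalytic subunit, rose by 0.87 (adjusted p = 0.000331) and the ATPase gene Psmc5 by 0.49. The ATPase gene Psmc6 read 9.93 to 10.5 in sham and 8.92 to 9.81 in transected arrays (−0.93, adjusted p = 4.52e-05), and 2 further Psmc6 probe sets fell as well (−0.76 and −0.75). Psmd14, the deubiquitinase of the proteasome lid, fell by 1.01 (adjusted p = 0.000198) and its second probe set differed by −0.08. Of 58 ubiquitin enzymes 9 rose and 6 fell (15.5% and 10.3%, all genes 10.7% and 9.44%), 7 and 1 without the 2 arrays (all genes 3.97% and 2.78%). Usp5, which recycles ubiquitin chains, rose 2.20-fold, and the conjugating enzymes Ube2m and Ube2s rose 2.18-fold and 1.76-fold. The neuronal hydrolase gene Uchl1 read 7.07 to 8.12 in sham and 8.54 to 9.28 in transected arrays (1.01, adjusted p = 0.000478), while Uchl3 fell by 1.11 (adjusted p = 0.00689; 0.134 without the 2 arrays). Uba1, the main ubiquitin-activating enzyme, rose by 0.86, and Uba2 and Uba3, which activate SUMO and NEDD8, fell by 0.83 and 0.96 with all arrays (adjusted p = 0.164 and 0.0895 without the 2).

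Of 23 tubulins and microtubule-associated proteins 8 rose and 1 fell (34.8% and 4.35%, all genes 10.7% and 9.44%; 3 and 2 without the 2 sham arrays). Map1lc3a, which marks autophagosomes, read 8.08 to 9.29 in sham and 9.73 to 10.2 in transected arrays (0.99, adjusted p = 0.00079). Tubb5 and Map1b rose by 0.74 and 0.64 and Map4 fell by 0.70, and each of these 3 had another probe set of opposite sign that did not pass (−0.07, −0.14 and 0.20). Of 41 kinesin, dynein and dynactin genes 7 rose and 4 fell (17.1% and 9.76%, all genes 10.7% and 9.44%; 3 and 2 without the 2 arrays). Within dynactin, Dctn6 read 10.5 to 10.7 in sham and 11.2 to 11.6 in transected arrays (0.79, adjusted p = 1.6e-05), Dctn1 rose by 0.75 and Dctn5 fell by 0.70, each in both fits. Of 44 genes of synaptic vesicles and release 7 rose and 2 fell (15.9% and 4.55%, all genes 10.7% and 9.44%; 1 and 2 without the 2 arrays). Syp, synaptophysin, rose by 0.68 (adjusted p = 0.0014) and was the riser that passed without the 2 arrays, while the falls of Rims2 (−0.69) and Rab3d (−0.55) passed in both fits. Of 19 activity-regulated genes 4 rose and none fell (21.1% and 0%, all genes 10.7% and 9.44%), and Sik1 (0.50) and Dusp1 (0.57) passed in both fits. Their second probe sets differed by 0.13 (adjusted p = 0.44) and −0.01 (adjusted p = 0.98). Of 21 cholesterol genes 2 rose and 1 fell with all arrays (9.52% and 4.76%, neither share above that of all genes). Without the 2 arrays 2 rose and 1 fell, beside 3.97% and 2.78% of all genes. The regulators Srebf2 (0.90, adjusted p = 6.24e-05) and Srebf1 (0.52) rose. A second Srebf1 probe set differed by 0.04 (adjusted p = 0.815). The synthesis enzyme gene Msmo1 fell (−0.50, with an adjusted p of 0.222 without the 2 arrays).

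**Figure D4:**
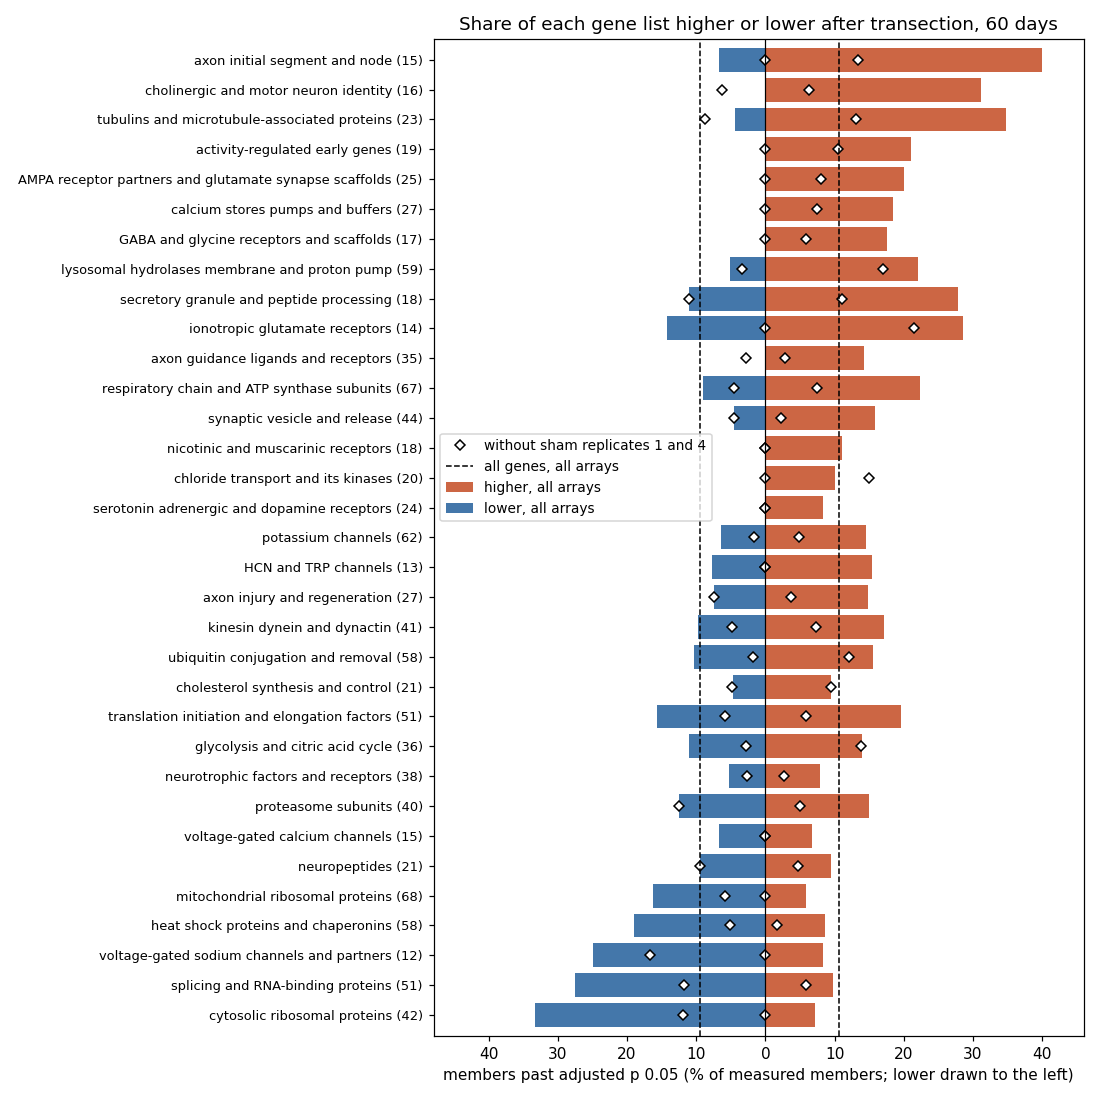
Share of the measured members of each of 33 gene lists that passed an adjusted p of 0.05 higher (right) or lower (left) after transection at 60 days; the number of members follows each name. Bars use all arrays, diamonds leave out sham replicates 1 and 4, and dashed lines mark all genes with all arrays (10.7% higher, 9.44% lower). For the diamonds the shares of all genes are 3.97% higher and 2.78% lower and are not drawn.

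Markers of other cell types were measured on the same arrays. With all arrays 6 of 90 entries of the marker lists rose and 5 fell in the limma fit (6.67% and 5.56%, below the 10.7% and 9.44% of all genes). Without the 2 sham arrays 7 rose and none fell (7.78% and 0%). The share of risers was then above that of all genes, which was 3.97% higher and 2.78% lower. The risers with all arrays were Aldoc and Cck, described above, the myelin gene Mag, the complement gene C1qb (0.48), the endothelial gene Esam (0.41) and the B cell gene Cd79b (0.35). Vim (−1.53), Hbb (−1.38), Lum (−1.18), Col1a2 (−1.12) and Abcb1a (−0.69) fell, and each was highest in sham replicate 1; without the 2 sham arrays none of these passed (adjusted p = 0.13 to 0.89). Mbp, myelin basic protein, read 11.3, 8.92, 8.49, 9.11 and 8.37 in sham and 9.42 to 11 in transected arrays. It differed by 1.04 (adjusted p = 0.0745) and, without the 2 sham arrays, rose by 1.68 (adjusted p = 0.01). Its other probe sets differed by 0.36 and 0.14 with all arrays (adjusted p = 0.0786 and 0.54). Without the 2 sham arrays they differed by 0.29 and 0.32 (adjusted p = 0.352 and 0.289). Mag rose by 0.70 and 0.93. The astrocyte genes Agt, S100b and Slc1a2 rose only in the fit without the 2 sham arrays (adjusted p = 0.0496, 0.0193 and 0.0374). Aif1, a microglial marker, read 8.14 in transected replicate 8 and 5.33 to 6.36 in the other transected arrays, against 5.86 to 7.82 in sham (−0.61, adjusted p = 0.321). With glial marker means as a covariate 2767 probe sets passed, 2443 of them shared with the 2463 in the same direction.

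The 21-day comparison used other arrays (8 transected and 6 sham) and shares with the 60-day one only the fit's estimate of the spread. Of the 2463 probe sets called at 60 days 1316 (53.4%) were called in the same direction at 21 days, which is 45.1% of the 2917 called there (22.6% of all), and 2 were called in opposite directions. In 2373 (96.3%) the sign was the same, and without sham replicates 1 and 4 in 97.7% of 797. Over all 12913 probe sets the differences at the 2 days correlated at 0.775 (Pearson), and at 0.737 without those 2 arrays. The share of like signs over all probe sets was not counted. Cacng2 (2.28 at 21 days and 2.78 at 60), Clcn3 (2.20 and 2.41) and Ccar1 (−2.02 and −2.04) had differences of similar size at the 2 days. Ctsd (0.80 and 1.80), Igfbp6 (0.66 and 1.52), Slc18a3 (0.32 and 1.48) and Lgals3 (−0.09 and −0.99) had larger values at 60 days. The difference between the days passed for none of the 12913 probe sets in limma (905, 7.01%, at an unadjusted p under 0.05; 3 with array weights). The smallest p among genes was that of Ppm1g, a protein phosphatase (−0.40 at 21 days and 0.32 at 60, unadjusted p = 4.32e-05, adjusted p = 0.338). Next were Fbxo36 (−0.26 and 0.28), Lamtor4, part of the lysosomal nutrient-sensing complex (−0.09 and 0.47), Arf6 (−0.08 and 0.48) and Abcc5 (0.06 and 0.71) among genes with the higher value at 60 days. Among genes with the lower value at 60 days, Ahsp, a haemoglobin chaperone, had the smallest p (0.15 and −0.40, unadjusted p = 5.23e-05, adjusted p = 0.338), followed by Igf1 (0.27 and −1.07, adjusted p = 0.44), Rpl26 (0.38 and −0.58), Nisch (0.54 and 0.04) and Palld (0.96 and −0.24). Lamtor4, Arf6 and Abcc5 rose at 60 days in both fits.

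**Figure D5:**
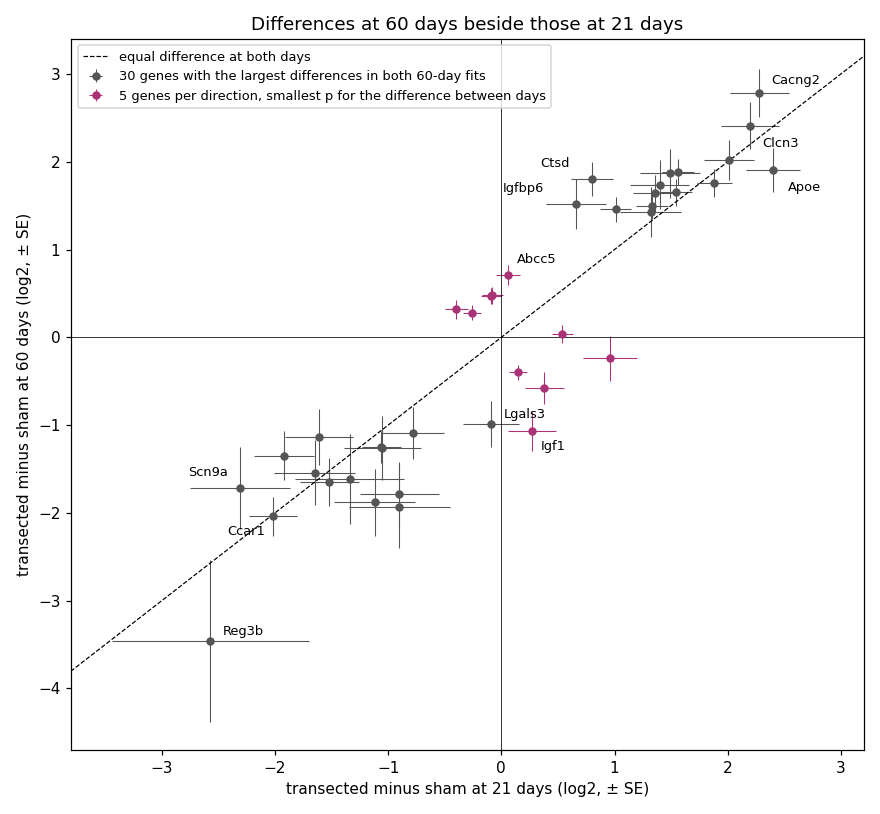
Transected minus sham difference (log2, with SE bars) at 60 days against that at 21 days for 30 genes with the largest 60-day differences in both fits (grey) and the 5 genes per direction with the smallest p for the difference between days (purple). All 30 grey points have the same sign at both days, with Lgals3 the smallest at 21 days (−0.09 and −0.99). Igf1, a purple point, lies at 0.27 and −1.07.

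Probe sets of 1 gene did not always move together. Of 1705 genes with several, 551 had at least 1 called probe set; in 449 of these exactly 1 was called, in 80 more than 1 in the same direction and in 22 they were called in opposite directions. The share of called probe sets rose with the mean signal, from 6.63% of the 3229 probe sets with the lowest signal to 30.7% of the 3228 with the highest. Genes that rose were shorter in the genome than those that fell, with a median of 13.5 kb against 26.9 kb and 20.6 kb for all genes tested (RefSeq gene spans, GRCr8), and the medians were 13.4 and 25.7 kb for the genes called in both fits. This is a description of the lists and was not tested. The median GC content of their promoters was 61.3% and 60.7%, beside 59.7% for all.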

How the data were processed

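The authors deposited log2 signals per probe set of Affymetrix rat arrays, made with RMA per the submitters' processing notes, which name neither a version nor a genome build. RMA sets all arrays to 1 distribution, so a change shared by most transcripts would not show. Gene names came from the platform annotation: of 12913 tested probe sets 11880 had 1 symbol, 320 several and 713 none, and 11849 matched RefSeq. Where a gene had several probe sets, the one brightest on average represented it.

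All 27 arrays, in 4 groups and with no covariate, entered 1 limma fit (version 3.58.1 in R 4.3.3; lmFit, then eBayes). Its two-sided p-values were adjusted over all 12913 probe sets (Benjamini-Hochberg) and called at 0.05; the 6 control probe sets stayed out and no signal filter was used. Errors after a difference are standard errors. Adjusted p-values in the report come from limma unless an exact permutation test is named. Array measures were compared in Python 3.11.15 (numpy 2.4.6, pandas 2.3.3), and plots made with matplotlib 3.10.9. The fit was first tested on simulated data. Arrays give no count depth, so their number limits precision.

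The arrays and the 40 gene lists were chosen with earlier results of these data known. Named genes are up to 15 per direction with the largest difference without sham replicates 1 and 4 among those called in both fits, up to 4 per list with the smallest p, up to 5 per direction for the difference between days, and a fixed set (Slc18a3, Chat, Slc12a5, Htr2a, Htr2b, Htr2c, Cacna1c, Cacna1d, Cacng2, Apoe, Ctsd, Gfap, Aif1, Mbp, Atf3, Gap43; Chat, Slc12a5 and Gap43 had no single-gene probe set). Other list members were chosen as examples after their values were seen. Alternatives covered arrays left out, array weights, normalization, signal filter, a glial covariate, other probe sets and a replicate block.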

Additional observations from a re-analysis of the deposited data

Results flagged for a closer look

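In 36 of 406 groups of arrays tested, the highest or lowest array lay further from the nearest other array than Dixon's 95% critical value allows, where chance flags about 1 in 20. Sham replicate 4 accounted for 21 of the 36.

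It was the lowest sham array for Reg3b (7.43, next 11.2), Scn9a (6.28, next 8.53), Slc18a3 (5.43, next 6.86), Map1b (11.9, next 13.1), Aldoc (10.3, next 11.4) and Nefh (13.2, next 14.1). The same held for Adra1d (5.58), Cck (7.94), Cyp51 (9.91), Dctn6 (10.5), Hpcal1 (8.04), Psmb7 (7.84), Sec62 (8.83), Uchl1 (7.07), Usp5 (7.67) and the motor neuron identity mean (8.56). It was the highest for Pdyn (9.92, next 7.34), Scn2a (8.35, next 6.47), Gabra5 (9.38, next 7.89), Chgb (12, next 11.1) and Crh (6.83, next 6.22). Sham replicate 1 was highest for Mbp (11.3, next 9.11) and for the endothelial marker mean (6.65), and sham replicate 5 lowest for Mrps14 (8.76).

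Transected replicate 8 was highest of its group for Aif1 (8.14, next 6.36), the microglial marker mean (7.50, next 6.83), Mgp (7.43) and Cspg4 (6.51), and lowest for Hbb (6.41) and Chrm5 (6.16). Among the other transected arrays, replicate 1 was highest for Basp1 (8.70) and Chrna4 (6.08), replicate 2 highest for Lhx1 (6.17) and lowest for Phip (4.21, next 5.27), replicate 4 highest for Adra1d (7.58) and replicate 6 highest for Map1lc3a (10.2).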

How the results depend on the processing

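Sham replicates 1 and 4 set the number of calls most. The 2463 probe sets called became 797 (472 higher, 325 lower) without both, and 1210 (587 and 623) when the day-60 arrays were fitted alone without both. Leaving out 1 array at a time gave 1538 to 2760 calls (837 to 1371 higher, 701 to 1389 lower), with 1635 without sham replicate 1 and 1538 without sham replicate 4. Of 154 named genes called, 51 lost the call without both, 22 without sham replicate 1 and 23 without sham replicate 4. Some of these genes were chosen because they passed without both, so they could not lose that call. Over all probe sets, 728 of the 2463 kept the call in the same direction without both. Array weights, another quantile step, median centring, a trended and robust variance and a glial covariate kept the count within 1.5 times. With array weights 3 probe sets passed for the difference between days, where the unweighted fit had 0. Same-numbered samples did not consistently deviate together (correlations of −0.309 to 0.331 at 60 days), so the numbers were not taken as pairs; the fit with the replicate number as a block called 3073. The named genes that were called had 37 other probe sets. Of these, 8 passed in the same direction, 17 had the same sign but did not pass and 12 had the opposite sign. The 12 were those of Ccar1 (0.20), Cd55 (0.06), Drd4 (−0.13), Dusp1 (−0.01), Gabarap (−0.08), Gch1 (0.10), Gria4 (0.15), Hpcal1 (−0.03), Map1b (−0.14), Map4 (0.20), Nrg1 (−0.38) and Tubb5 (−0.07). The cause was not tested. Of the 3229 probe sets with the lowest signal 6.63% were called; why was not tested.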
